A study of Mus musculus with 45 samples.

Results

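Keratins are the intermediate filament proteins of epithelial cells, and 50 of the 22080 genes measured on the arrays were keratin genes, chosen by a gene name made of Krt, a number and at most a letter suffix. Of these, 6 are keratins of simple, single-layered epithelia (Krt7, Krt8, Krt18, Krt19, Krt20 and Krt23), 20 are keratins of squamous, stratified epithelia such as skin and oesophagus (among them Krt4, Krt5, Krt13, Krt14 and Krt15), 22 belong to hair and its root sheath, and 2 (Krt42 and Krt222) were placed in no class. Expression was measured in liver, kidney and brain of male C57BL/6 mice, 7 weeks old when the study began, with 45 arrays (Affymetrix, type Mouse Gene ST v1.0), 3 for each of 15 groups. The AIN-93 diet was given alone (Control), with 0.5% cholesterol (HCD), or with the same cholesterol plus 1.0% of Ganoderma lucidum extract Gl-1 (HCD+Gl-1), 1.0% of extract Gl-2 (HCD+Gl-2) or 0.03 g/100 g of simvastatin (HCD+Sim), so every group other than Control received cholesterol. Gl-1 and Gl-2 differ in that the mushroom of Gl-2 was grown on substrate with 10 mM acetylsalicylic acid, and simvastatin is an inhibitor of cholesterol synthesis. Each diet group had 8 mice, sacrificed on day 43. RNA was pooled, and by the methods pools A and B each held 4 mice and pool C held A and B together. The 3 arrays of a group are thus not separate mice, and pool C is not independent of A and B. Unless a permutation test or another fit is named, p-values below use the spread of each gene between pools over all 15 groups. A wide spread in a single group is thus averaged with that of the others.

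Values are normalised log2 signals, on which a difference of 1 is a doubling, and levels of different genes on this scale cannot be set against each other. Array medians lay between 6.76 and 6.92, and the lowest correlation between arrays of a group was 0.985. The tissue labels were borne out by the defining genes. All 6 liver genes examined (such as Alb) were higher in liver than in brain, all 6 kidney genes (such as Umod) were higher in kidney than in either other tissue, and all 6 brain genes (such as Snap25) were higher in brain. A gene was called when its absolute log2 fold change exceeded 0.7 and its Benjamini-Hochberg adjusted p, from a limma fit over all genes and arrays, was at most 0.05. Each count of keratins is given beside the percentage of all 22080 genes called in the same comparison.

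A keratin filament is built from pairs of a type I and a type II keratin, and a cell needs both to assemble a stable network. Hepatocytes make the pair Krt8 and Krt18, bile duct cells add Krt7 and Krt19, and the collecting ducts of the kidney also contain simple keratins. Healthy liver parenchyma has no stratified epithelium, and neurons and glia use other intermediate filaments. All 50 keratins were found in RefSeq (GRCm38.p6), 27 on chromosome 11, where the type I genes lie, and 23 on chromosome 15, where the type II genes lie, with the type I gene Krt18 beside Krt8. In bulk tissue, fewer cells of a type and less RNA per cell cannot be told apart. Some keratin genes, such as Krt6a and Krt6b or Krt33a and Krt33b, are near-identical copies, and whether their probes share signal was not tested.

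**Figure D1:**
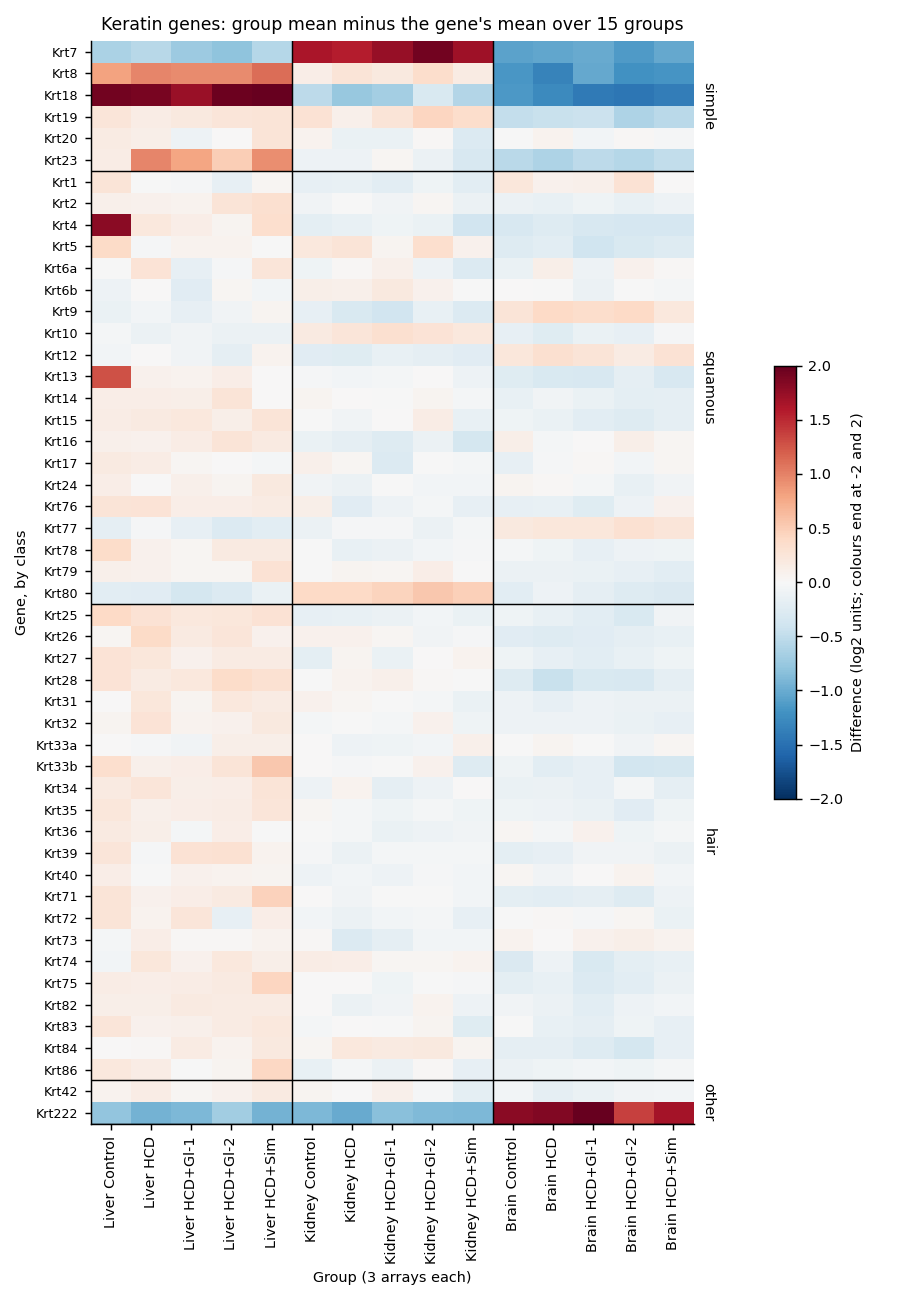
Group means of the 50 keratins (rows, by class) in the 15 groups (columns, 3 arrays each), as the difference in log2 units from each gene's mean over the groups. Krt7, Krt8, Krt18 and Krt222 separate the tissues, Krt4 and Krt13 stand out in Liver Control, and Krt23 is low in Liver Control beside the other liver groups.

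The tissues differed in simple keratins above all. Over the 5 diets, 4 of 50 keratins were called between liver and kidney, 6 between liver and brain, and 5 between kidney and brain, while 16.5%, 32.4% and 30.0% of all genes were called. The share of keratins called was thus below that of all genes in each tissue comparison. Without the fold change threshold, 42, 40 and 30 keratins had an adjusted p of at most 0.05, beside 76.6%, 88.0% and 77.0% of all genes. All calls between liver and kidney (Krt7, Krt8, Krt18 and Krt23) were of simple keratins. The simple class also gave 4 of the 6 calls between liver and brain and 4 of the 5 between kidney and brain.

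Krt18, the type I partner in hepatocyte filaments, had its highest level in liver. The lowest, median and highest of 15 arrays were 9.36, 9.98 and 10.13 in liver, 7.21, 7.42 and 7.86 in kidney, and 6.32, 6.72 and 6.95 in brain. No liver array overlapped another tissue, and neither did kidney and brain. Krt18 was higher in liver than in kidney by 2.47 (SE 0.06, adjusted p = 1.09e-32) and than in brain by 3.23 (SE 0.06, adjusted p = 3.72e-37). Its difference between kidney and brain was 0.76 (SE 0.06, adjusted p = 9.91e-16) and fell to 0.63, under the fold threshold, when the Control groups alone were compared.

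Krt8, the type II partner of Krt18, followed the same order of tissues over a narrower span. Its arrays ran from 9.52 to 10.16 in liver (median 9.89), from 8.88 to 9.37 in kidney (median 9.14), and from 7.48 to 8.00 in brain (median 7.71), with no overlap. Krt8 was higher in liver than in kidney by 0.73 (SE 0.05, adjusted p = 6.90e-17) and in kidney than in brain by 1.40 (SE 0.05, adjusted p = 1.57e-26). The difference between liver and kidney was 0.66 in the Control groups alone, which is under the fold threshold. Kidney thus stood nearer to liver in Krt8 and nearer to brain in Krt18. Across the 15 arrays of a tissue, Krt8 and Krt18 had a Pearson r of 0.61 in liver, 0.36 in kidney and -0.06 in brain. Without the 2 liver arrays farthest from the median of Krt8 the coefficient was 0.18. These arrays share their groups and their normalisation, so the coefficients only describe them.

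Krt7, a type II keratin of duct epithelia, had its highest level in kidney. Kidney arrays lay between 8.66 and 9.14 (median 8.90), liver arrays between 6.20 and 6.71 (median 6.55) and brain arrays between 6.01 and 6.33 (median 6.12). Every kidney array was above every array of the other tissues, whereas liver and brain overlapped. Krt7 was 5.15-fold lower in liver than in kidney (log2 -2.37, SE 0.04, adjusted p = 8.30e-39) and 6.80-fold higher in kidney than in brain (log2 2.77, SE 0.04, adjusted p = 2.02e-41). Its RefSeq neighbour Krt80 had a value of -0.69 between liver and kidney (SE 0.04), just under the fold threshold, in the same direction. All 9 collecting duct genes examined and 12 of the 14 bile duct genes were also called higher in kidney than in liver, beside 2191 of all 22080 genes.

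Krt19, a type I keratin of duct cells, was not called between liver and kidney. The difference was -0.07 (SE 0.06, adjusted p = 0.219), with liver arrays from 6.16 to 6.87 and kidney arrays from 6.02 to 6.72. Brain arrays were lower, from 5.40 to 5.89. Krt19 was higher than in brain by 0.80 in kidney (SE 0.06, adjusted p = 3.02e-16) and by 0.72 in liver (SE 0.06, adjusted p = 5.72e-15). The liver value fell to 0.68, under the threshold, without the third HCD+Sim array, whose Krt19 of 6.87 was the highest in liver. Over the kidney arrays Krt7 and Krt19 had a Pearson r of 0.57, and 0.61 without the 2 arrays farthest from the median of Krt7.

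Krt20, a keratin of intestinal and urothelial cells, was called in no tissue comparison. Its level lay between 4.89 and 5.48 in liver, 4.67 and 5.28 in kidney, and 4.87 and 5.23 in brain, so the 3 ranges overlapped. Krt23, a type I keratin of simple epithelia, was higher in liver than in brain by 1.22 (SE 0.05, adjusted p = 1.02e-22) and than in kidney by 0.79 (SE 0.05, adjusted p = 2.75e-16). These tissue differences held all diets together. In the Control groups alone the difference from kidney was 0.25 (adjusted p = 0.0809) and that from brain was 0.68, so neither was called.

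**Figure D2:**
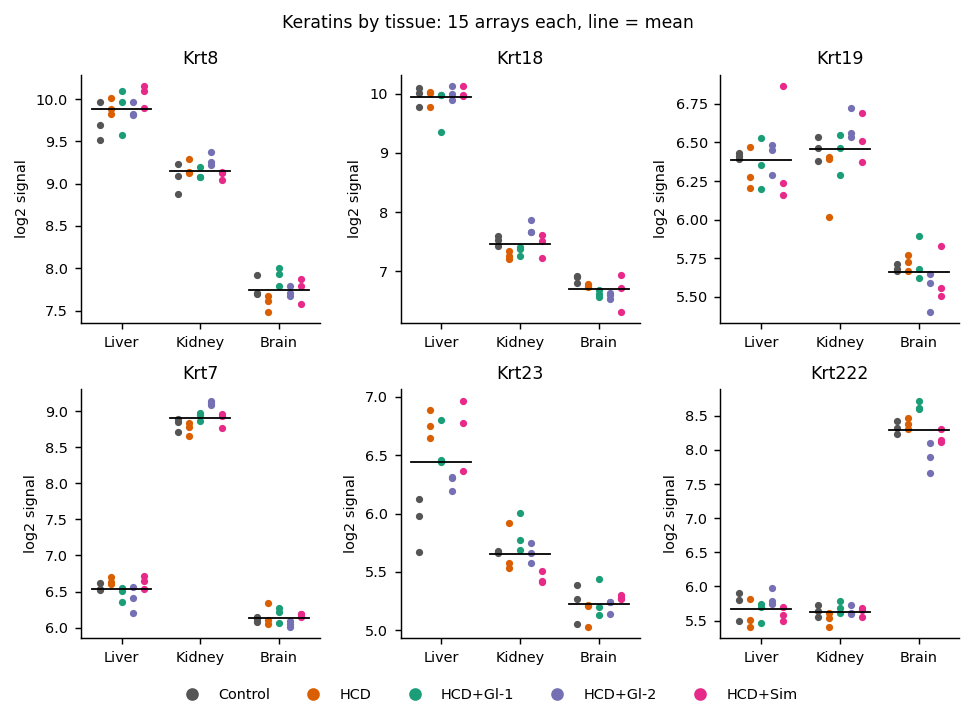
Normalised log2 signal of Krt8, Krt18, Krt19, Krt7, Krt23 and Krt222 in liver, kidney and brain, with each of the 15 arrays of a tissue as a point coloured by diet and the mean as a line. Krt8 and Krt18 fall from liver to kidney to brain, Krt7 is highest in kidney and Krt222 in brain.

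Krt222, a type I keratin gene by its place on chromosome 11, was the 1 keratin called higher in brain. Brain arrays lay between 7.66 and 8.72 (median 8.31), above all liver arrays (5.41 to 5.98) and all kidney arrays (5.41 to 5.79). Krt222 was 6.11-fold lower in liver (log2 -2.61, SE 0.05, adjusted p = 2.03e-36) and 6.33-fold lower in kidney (log2 -2.66, SE 0.05, adjusted p = 1.24e-36) than in brain. Liver and kidney differed by 0.05 in Krt222.

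No squamous keratin was called between liver and kidney or between kidney and brain. The only one called was Krt4, a type II keratin of oesophageal epithelium, at 0.82 in liver against brain (SE 0.13, adjusted p = 7.37e-07). Without the second Liver Control array the value for Krt4 was 0.70 and was no longer called, and in the Control groups alone it was 2.12 (adjusted p = 6.99e-08). Krt5 and Krt14, the basal cell pair of stratified epithelia, and Krt15, another basal keratin, differed between liver and kidney by -0.08, 0.12 and 0.20. No hair keratin was called between any tissues. The medians of the 22 hair keratins were 0.20 for liver against kidney, 0.30 for liver against brain and 0.08 for kidney against brain, beside 0.07, 0.15 and 0.07 over all genes.

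Of the proteins that anchor keratins to cell junctions, 19 genes were measured. Between liver and kidney 6 were called higher in liver and 2 lower, between liver and brain 9 higher and 1 lower, and between kidney and brain 7 higher and 0 lower, beside 16.5%, 32.4% and 30.0% of all genes called in either direction. Dsp (desmoplakin), which links desmosomes to keratins, was higher in liver than in kidney by 0.79 (SE 0.05) and in kidney than in brain by 1.92 (SE 0.05), the order of tissues seen for Krt8 and Krt18. Jup (plakoglobin) was higher in kidney than in liver, with a value of -0.98 for liver against kidney (SE 0.06). Among 16 other intermediate filament genes 2 were called higher in kidney than in brain (Des, the filament of muscle, and Nes) and 6 lower, with -5.63 for Nefl, a neurofilament subunit, and -2.95 for Gfap, the filament of astrocytes.

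The promoters of the tissue keratins and of the 2 diet-related genes held in the sequence table are shown because Krt8 and Krt18 share an order of tissues, Krt7 differs from it, and Krt13 and Krt23 differed with diet. Each line gives the 250 bases before the transcription start, 5′ to 3′, from RefSeq (GRCm38.p6). Capitals mark matches on either strand to 7 motifs. The TATA box was searched as TATAAA. A related form, which can overlap it, was searched as ATAAAA. The GC box was searched as GGGCGG. The KLF motif, which can overlap the GC box, was searched as CCNCNCCC. The AP-1 motif was searched as TGANTCA. The C/EBP motif was searched as TTGCNNAA. The half-site of nuclear receptors was searched as AGGTCA. The lines are Krt13 at chr11:100121567-100121816 (minus strand), Krt23 at chr11:99493121-99493370 (minus strand), Krt8 at chr15:102004343-102004592 (minus strand), Krt18 at chr15:102027966-102028215 (plus strand) and Krt7 at chr15:101412153-101412402 (plus strand).
Krt13: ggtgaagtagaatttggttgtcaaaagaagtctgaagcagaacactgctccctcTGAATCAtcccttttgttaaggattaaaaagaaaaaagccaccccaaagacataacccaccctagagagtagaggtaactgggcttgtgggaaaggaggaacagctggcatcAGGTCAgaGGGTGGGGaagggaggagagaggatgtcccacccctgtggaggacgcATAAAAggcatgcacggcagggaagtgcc
Krt23: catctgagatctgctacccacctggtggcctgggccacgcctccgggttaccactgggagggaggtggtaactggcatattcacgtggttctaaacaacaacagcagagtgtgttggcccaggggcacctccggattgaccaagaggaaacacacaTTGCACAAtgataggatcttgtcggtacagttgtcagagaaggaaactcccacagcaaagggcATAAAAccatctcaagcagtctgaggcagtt
Krt8: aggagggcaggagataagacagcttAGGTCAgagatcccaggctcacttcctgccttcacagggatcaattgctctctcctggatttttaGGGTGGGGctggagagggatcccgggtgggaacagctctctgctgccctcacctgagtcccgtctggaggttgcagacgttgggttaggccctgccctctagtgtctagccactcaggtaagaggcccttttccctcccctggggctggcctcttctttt
Krt18: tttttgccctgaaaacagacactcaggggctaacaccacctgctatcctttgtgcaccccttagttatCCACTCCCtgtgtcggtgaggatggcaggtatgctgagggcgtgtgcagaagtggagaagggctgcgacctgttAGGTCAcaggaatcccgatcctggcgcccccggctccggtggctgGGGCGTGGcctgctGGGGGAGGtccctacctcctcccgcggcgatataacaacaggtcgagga
Krt7: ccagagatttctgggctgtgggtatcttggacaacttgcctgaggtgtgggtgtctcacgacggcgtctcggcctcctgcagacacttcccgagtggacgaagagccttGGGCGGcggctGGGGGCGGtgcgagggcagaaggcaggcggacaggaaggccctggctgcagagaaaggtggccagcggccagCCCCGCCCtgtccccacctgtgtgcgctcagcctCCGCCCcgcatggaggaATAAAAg

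Promoter windows were at hand for 35 of the 50 keratins, with 36 starts, and Krt4, Krt19 and Krt222 were not among them. Krt13 and Krt23 both held ATAAAA a short distance before the start, from base -29 and from base -31. Krt8 and Krt18 held neither TATAAA nor ATAAAA, and other TATA-like forms were not searched. Among the 36 keratin windows, 20 (55.6%) had 1 of the TATA forms on the strand of the gene, beginning 40 to 20 bases before the start, against 2.87% of all 32851 windows. The GC box was in 2 keratin windows (5.56%) and in 32.7% of all windows. Krt7 was among these, with 4 matches. The KLF motif was in 38.9% of keratin windows and 45.9% of all, AP-1 in 5.56% and 6.75%, C/EBP in 11.1% and 9.56%, and the nuclear receptor half-site in 19.4% and 14.02%. TATAAA itself was in 47.2% of keratin windows and 12.4% of all, and ATAAAA in 55.6% and 17.0%. These are matches of letters and not bound sites.

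In liver, the mean of Krt23 was higher in the cholesterol-fed groups than in Control, and the means of Krt4 and Krt13 were lower. For Krt4 and Krt13 the high Control values were those of pools A and B. Krt4 in Control pool C lay inside the range of the cholesterol-fed arrays. Between HCD and Control 3 keratins were called (Krt4, Krt13 and Krt23), while 0.245% of all genes were called. In HCD+Gl-1 and HCD+Gl-2 against Control the 2 keratins called were Krt4 and Krt13, beside 0.322% and 0.584% of all genes. In HCD+Sim against Control Krt4, Krt13 and Krt23 were called, beside 0.358%. With the mean of the 4 cholesterol-fed groups set against Control, Krt4 and Krt13 were called, beside 0.217%. All these comparisons share the 3 Liver Control arrays, so they are not separate evidence for the same gene. The other 47 keratins were not called in any liver diet comparison. The median keratin differed from Control by -0.02 in HCD and -0.06 in HCD+Gl-1, against -0.01 and -0.03 over all genes.

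**Figure D3:**
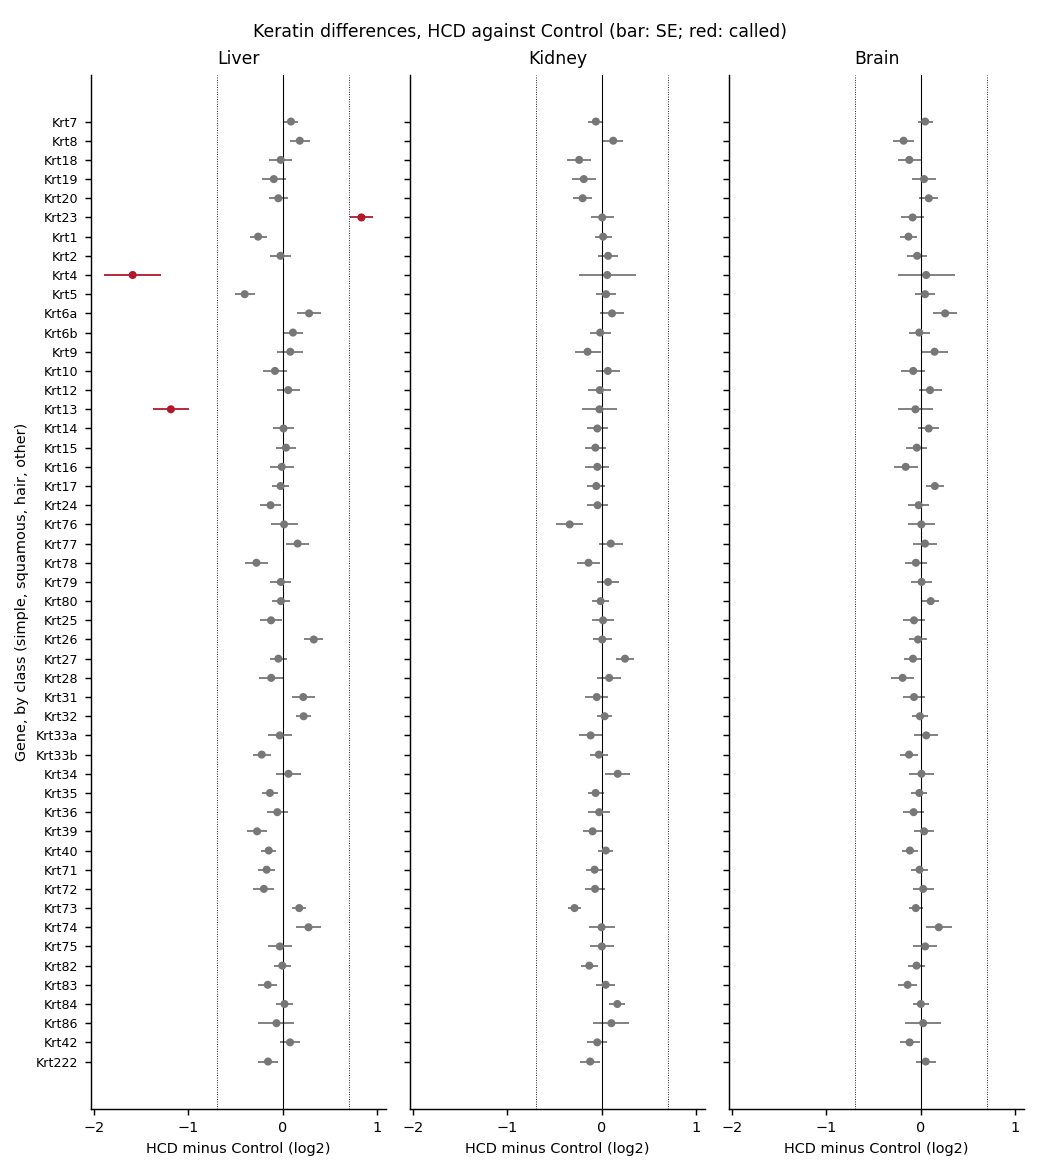
Difference of each keratin (rows) between HCD and Control in liver, kidney and brain, in log2 units, with the standard error as a bar, the fold threshold as dotted lines and called genes in red. Only liver holds called keratins, at 0.84 for Krt23, -1.19 for Krt13 and -1.59 for Krt4.

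Krt23 was the simple keratin that changed. Its values in pools A, B and C were 5.98, 5.67 and 6.12 in Control, 6.89, 6.65 and 6.75 in HCD, and 6.78, 6.37 and 6.97 in HCD+Sim. In HCD+Gl-1 they were 6.46, 6.44 and 6.80, and in HCD+Gl-2 they were 6.19, 6.31 and 6.31. All 12 cholesterol-fed arrays were above all 3 Control arrays, and the HCD+Gl-2 arrays lay between those of Control and those of HCD without touching either.

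The group means of Krt23, from low to high, stood in the order Control, HCD+Gl-2, HCD+Gl-1, HCD+Sim and HCD, at 5.92 ± 0.23, 6.27 ± 0.07, 6.57 ± 0.20, 6.70 ± 0.31 and 6.76 ± 0.12 (SD, n = 3). Krt23 rose 1.78-fold in HCD (log2 0.84, SE 0.12, adjusted p = 4.35e-05 in limma) and 1.72-fold in HCD+Sim (log2 0.78, SE 0.12, adjusted p = 7.30e-05). In HCD+Gl-1 the value was 0.64 (adjusted p = 0.00111), under the fold threshold, and in HCD+Gl-2 it was 0.35 (adjusted p = 0.131). HCD+Gl-2 was lower than HCD by 0.49 (SE 0.12, adjusted p = 0.0225), which passed on the adjusted p alone (0.253 when fitted on the 15 liver arrays). Neighbours in this order did not pass, with -0.30 for HCD+Gl-2 against HCD+Gl-1 (adjusted p = 0.157), -0.14 for HCD+Gl-1 against HCD+Sim (adjusted p = 0.542) and -0.05 for HCD+Sim against HCD (adjusted p = 0.926). An exact permutation test, two-sided as are all others, of Krt23 over 12 cholesterol-fed against 3 Control arrays gave p = 0.0022, the smallest it can give. These tests treat all arrays as independent. Since pool C holds A and B, and the fed arrays share diets, their p-values only describe the order of the arrays. With 3 arrays against 3, each exact permutation p for Krt23 against Control was 0.1, which is also the smallest possible.

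Lists of other cell types were read beside Krt23. Without pool C of HCD+Sim the Krt23 value in HCD+Sim was 0.65, and without pool B of Control it was also under the threshold. The summed linear signal of 19 measured acinar pancreas genes was 2996 in pool A, 4201 in pool B and 1546 in pool C of Liver HCD+Sim, against 1305 to 1518 over the other liver groups. Krt23 was highest in pool C and lowest in pool B of that group. No gene of the 14 of the bile duct list was called in any liver diet comparison against Control or HCD, and its summed signal ranged from 2057 to 2345 in Control and from 1929 to 2124 in HCD. The part of pancreas RNA in the HCD+Sim value of Krt23 was not tested.

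Over the 15 liver arrays the 5 genes other than keratins most like Krt23 were Gm10639, Keg1, Sulf2, Cryz and Ces1g, with Pearson r of 0.89, 0.88, 0.87, 0.87 and 0.86. Without the 2 arrays farthest from the Krt23 median the coefficients were 0.80, 0.83, 0.83, 0.79 and 0.83. These genes were picked for their likeness from all genes, and the arrays share diets.

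The remaining simple keratins of liver were not called with any diet. Krt8, Krt18, Krt19 and Krt7 differed between HCD and Control by 0.18, -0.02, -0.09 and 0.09, with adjusted p-values of 0.605, 0.986, 0.891 and 0.796. The value of Krt8 in HCD+Sim was 0.32 against Control (SE 0.11, adjusted p = 0.144). Krt20 was lower in HCD+Gl-1 than in HCD+Sim by 0.36 (adjusted p = 0.0374), on the adjusted p alone.

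**Figure D4:**
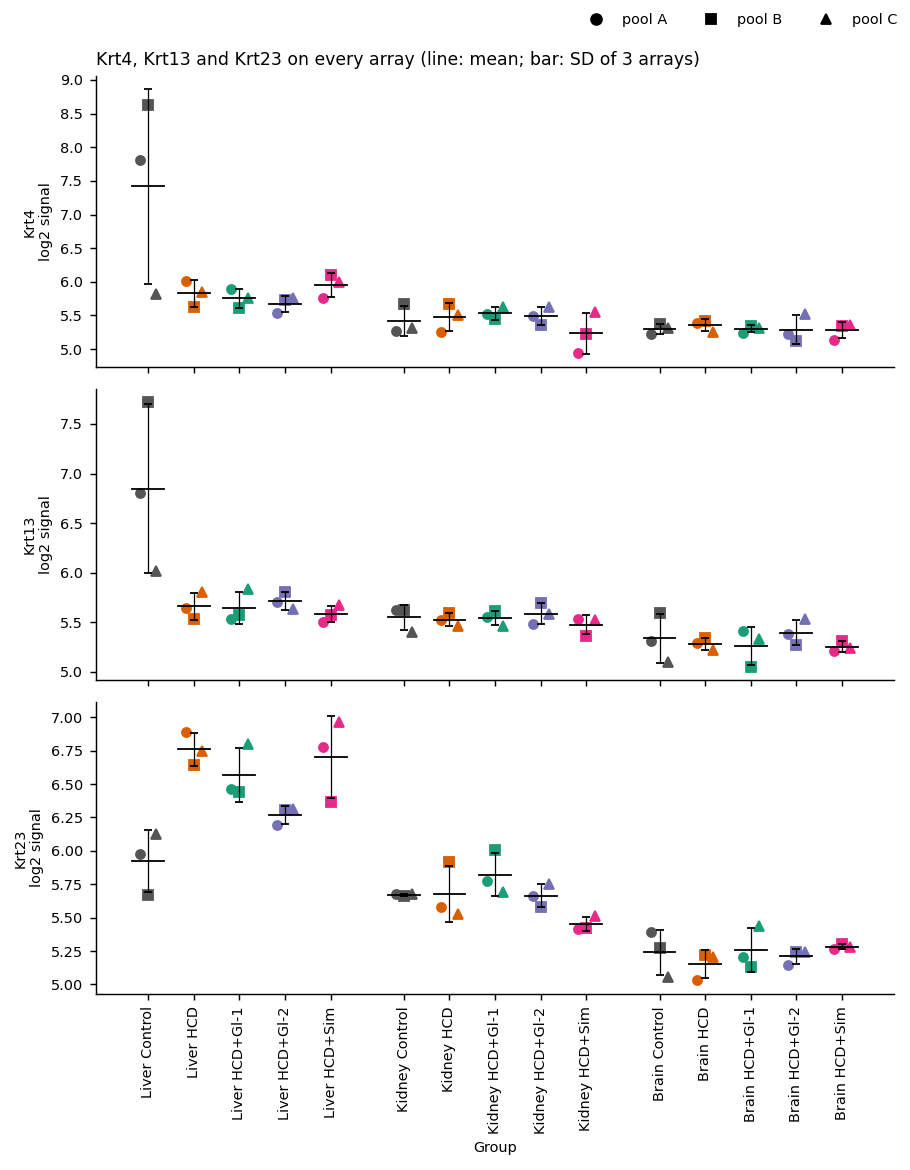
Krt4, Krt13 and Krt23 on each array of the 15 groups as normalised log2 signal, with pool A as a circle, pool B as a square and pool C as a triangle, and the mean and SD of 3 arrays as lines. Krt4 and Krt13 are high in pools A and B of Liver Control, and Krt23 is raised in the cholesterol-fed liver groups.

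Krt4 and Krt13, which pair with each other in the upper layers of oesophageal and oral epithelium, were lower in every cholesterol-fed liver group. Krt4 read 7.80, 8.63 and 5.82 in Control pools A, B and C, and between 5.53 and 6.10 on the 12 cholesterol-fed arrays. Krt13 read 6.80, 7.72 and 6.02 in Control and between 5.51 and 5.83 on the 12 others. The Control values of Krt4 were high in pools A and B, whereas pool C fell inside the range of the cholesterol-fed arrays. For Krt13 all Control arrays lay above the others, but pool C by a narrow margin. Pool C of Control thus lay below both pools from which it is said to be mixed, for both genes. Over all groups pool C lay between A and B for 32.3% of keratin values and 28.3% of values of all genes.

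The log2 difference of Krt4 from Control was -1.59 in HCD (SE 0.30, adjusted p = 0.00172), -1.67 in HCD+Gl-1 (adjusted p = 0.000683), -1.75 in HCD+Gl-2 (adjusted p = 0.000229) and -1.47 in HCD+Sim (adjusted p = 0.00379). That of Krt13 was -1.19 in HCD (SE 0.19, adjusted p = 0.000185) and lay between -1.26 in HCD+Sim (adjusted p = 3.83e-05) and -1.13 in HCD+Gl-2 (adjusted p = 0.000147). For 12 arrays against 3 the exact permutation p was 0.0132 for Krt4 and 0.0022 for Krt13, again with all arrays treated as independent. With 3 arrays against 3, the permutation p for Krt4 was 0.3 in HCD, 0.2 in HCD+Gl-1, 0.1 in HCD+Gl-2 and 0.3 in HCD+Sim. For Krt13 it was 0.1 in each, the smallest possible. The SD of Krt4 in Liver Control was 1.45 and that of Krt13 was 0.85, the largest keratin SDs of that group, where the median keratin had an SD of 0.12.

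Control pools A and B carried the high values of both genes. Without pool B alone, the second array of the group, Krt4 was -0.98 in HCD and -0.86 in HCD+Sim and Krt13 was -0.70 in HCD+Gl-2, and none of these was called. With pools A and B both left out, a comparison added after their values were seen, Control is pool C alone and its spread is taken from the other groups. Since pool C was known to be low, the values only describe the distance from that array. In HCD this was 0.01 for Krt4 (adjusted p = 0.992) and -0.36 for Krt13 (adjusted p = 0.327). In the 4 cholesterol-fed groups together the values of Krt4 and Krt13 were then -0.02 and -0.37. Krt23 was 0.63 in HCD with both left out (adjusted p = 0.0707). Fitted on the 15 liver arrays alone, Krt4 in HCD had an adjusted p of 0.205 and Krt13 of 0.0774.

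Krt5, the basal keratin of stratified epithelia, had the same arrays on top. It read 6.42, 6.71 and 6.24 in Control and between 5.91 and 6.28 in the cholesterol-fed groups. Krt5 was lower in HCD by 0.40 (adjusted p = 0.0414) and in HCD+Sim by 0.39 (adjusted p = 0.0425), on the adjusted p alone. Krt14, its partner, and Krt15 differed between HCD and Control in liver by 0.01 and 0.04 (adjusted p = 0.993 and 0.966). Of the 50 keratins, Krt4, Krt5 and Krt13 were the 3 whose Control pools A and B both exceeded all 13 other liver arrays, beside 1.06% of all genes. These pools were singled out for their high Krt4 and Krt13, so the place of those genes in the count was known beforehand.

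Other genes of squamous epithelium moved with these arrays. Of 34 measured genes of that list other than keratins, 13 were higher in Control pools A and B than in all 13 other liver arrays (2 of them by over 0.7), among them Krtdap, Sprr3, Cnfn and Tgm3. The same held for 1.06% of all genes. Since the pools were picked for high Krt4 and Krt13, and the list with earlier results known, these shares only describe the arrays. Krtdap, made in differentiating keratinocytes, read 6.55, 7.27 and 5.09 in Control and at most 5.21 elsewhere in liver. Sprr3, a cornified envelope protein of oesophagus, read 6.43, 7.15 and 5.06 in Control. The summed linear signal of the list was 4695, 5223 and 4110 in Control pools A, B and C and ran from 3590 to 3863 over the other liver groups. In HCD against Control 26 of the 34 were lower and 5 were called lower (Cnfn, Fabp5, Krtdap, Sprr3 and Tgm3), none higher, and the median was -0.21, beside 0.245% of all genes called and a median of -0.01. In the other groups against Control 3 to 5 were called lower, and in HCD+Gl-2 Dsg1a, a desmosomal cadherin, was called higher (0.82). Fabp5, a fatty acid binding protein, differed from Krtdap and Sprr3 in that it read 9.30, 9.38 and 9.32 in Control, high in pool C as well. No gene of the 11 squamous transcription factors or of the 6 liver genes stood higher in those pools than in all the others, and of the 19 keratin-anchoring genes Pkp2 and Dsc1 did. The part of squamous tissue in the values of Krt4 and Krt13 was not tested.

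**Figure D5:**
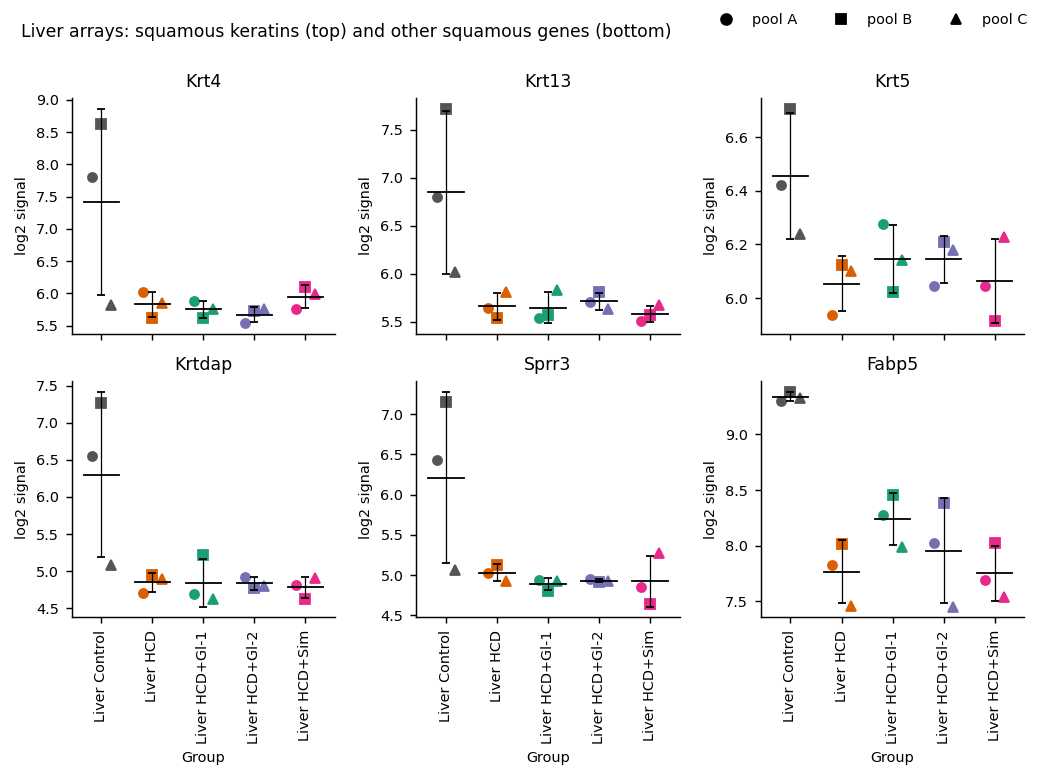
Normalised log2 signal on the 15 liver arrays of the squamous keratins Krt4, Krt13 and Krt5 (top) and of Krtdap, Sprr3 and Fabp5 (bottom), with pools A, B and C as circle, square and triangle and the mean and SD of 3 arrays as lines. In Control, pools A and B are high and pool C is lower for all but Fabp5, whose 3 Control arrays lie between 9.30 and 9.38.

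Likeness was read over the 15 liver arrays, which share groups. The 5 genes other than keratins most like Krt4 were Serpinb12, Sprr3, Hrnr, Myh8 and Krtdap, with Pearson r from 0.94 to 0.98. For Krt13 they were Serpinb12, Sprr3, Hrnr, Krtdap and Dmkn, with r from 0.94 to 0.97. Myh8, a myosin heavy chain of muscle, is no epithelial gene. Without Control pools A and B these coefficients ran from -0.52 to 0.54. The r between Krt4 and Krt13 was 0.95 in liver and -0.03 without Control pools A and B, and it was 0.19 in kidney and 0.32 in brain. By RefSeq order, Krt4 lies between Krt76 and Krt79, and Krt13 between Krt36 and Krt15, and none of these 4 neighbours was called in a liver diet comparison.

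The extracts and simvastatin were also set against HCD and against each other in liver. No keratin was called in HCD+Gl-1, HCD+Gl-2 or HCD+Sim against HCD, where 0.163%, 0.303% and 0.258% of all genes were called by limma. At an unadjusted limma p under 0.05 there were 5, 7 and 6 keratins, beside 3663, 2776 and 2588 of 22080 genes. None was called in HCD+Gl-2 against HCD+Gl-1, HCD+Gl-1 against HCD+Sim or HCD+Gl-2 against HCD+Sim, beside 0.172%, 0.249% and 0.285% of all genes. Unadjusted limma p-values under 0.05 numbered 3, 11 and 12 among keratins, beside 4363, 4695 and 2704 of 22080 genes. Values on the adjusted p alone, which can be smaller than the fold threshold, were few. In HCD+Sim against HCD there were 2, the hair keratins Krt33b (0.43, adjusted p = 0.0111) and Krt71 (0.38, adjusted p = 0.0252), beside 242 of 22080 genes. Both were also higher in HCD+Sim than in HCD+Gl-1, a comparison with the same HCD+Sim arrays, and with Krt20 they made 3 keratins beside 4.09%. Krt72, another hair keratin, was lower in HCD+Gl-2 than in HCD+Gl-1 (-0.40, adjusted p = 0.0316), beside 3.94%.

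Against Control and by the adjusted p alone, 4 keratins passed in HCD (1.34% of all genes), 3 in HCD+Gl-1 (3.58%), 4 in HCD+Gl-2 (2.86%), 4 in HCD+Sim (1.54%) and 5 in the 4 cholesterol-fed groups together (2.06%). Besides Krt4, Krt5, Krt13 and Krt23 these were Krt1, an epidermal keratin, with -0.43 in HCD+Gl-2 and -0.30 over the cholesterol-fed groups, and Krt72, with -0.42 in HCD+Gl-2. In HCD+Gl-2 against HCD Krt23 was the 1 keratin to pass, beside 1.70%.

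In kidney no keratin was called with any diet. The percentages of all genes called were 0.0408% for HCD against Control, 0.131% and 0.00906% for HCD+Gl-1 against HCD and against Control, 0.335% and 0.217% for HCD+Gl-2, 0.140% and 0.0317% for HCD+Sim, and 0.00453% for the cholesterol-fed groups against Control. By limma 2 to 5 of 50 keratins had an unadjusted p under 0.05 in each, beside 729 to 1980 of 22080 genes. Krt7 was higher in HCD+Gl-2 than in HCD by 0.36 (SE 0.08, adjusted p = 0.0107), on the adjusted p alone, beside 0.996% of all genes. Its values were 9.14, 9.09 and 9.12 in HCD+Gl-2, 8.83, 8.66 and 8.79 in HCD and 8.85, 8.72 and 8.90 in Control, so HCD+Gl-2 lay above both. Krt18 had the largest difference of a keratin between group means in kidney, with 7.67, 7.66 and 7.86 in HCD+Gl-2 and 7.21, 7.27 and 7.35 in HCD (0.46, SE 0.12, adjusted p = 0.0626). No gene of the collecting duct, urothelium or bile duct lists was called in that comparison, but all 6 urothelium genes (median 0.26) and 11 of 14 bile duct genes (median 0.18) had higher means in HCD+Gl-2, against 3 of 9 collecting duct genes. Beside Control, 3 of 6 urothelium genes (median 0.00261), 10 of 14 bile duct genes (median 0.04) and 3 of 9 collecting duct genes had higher means in HCD+Gl-2. Their part in the values of Krt7 and Krt18 was not tested. Krt4, Krt13 and Krt23 differed between HCD and Control in kidney by 0.06, -0.02 and 0.00494.

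In brain no keratin was called in the comparisons with Control and HCD either. All genes called made up 0.0317% in HCD against Control, 0.00906% and 0.00453% in HCD+Gl-1 against HCD and against Control, 0.0226% and 0.186% in HCD+Gl-2, 0% and 0.00906% in HCD+Sim, and 0.0136% in the cholesterol-fed groups against Control. By limma 0 to 3 keratins had an unadjusted p under 0.05, beside 1220 to 3045 of 22080 genes. Krt222 was lower in HCD+Gl-2 than in Control by 0.44 (SE 0.10, adjusted p = 0.0246), on the adjusted p alone, beside 1.47% of all genes. In these groups alone pools of the same letter deviated together (all 3 correlations over 0.1), and with the letter as a block in them the adjusted p was 0.00926, while the genes called went from 41 to 65. Fitted on their 6 arrays alone, the adjusted p was 0.515. From Control, HCD differed in Krt222 by 0.05. Against HCD the values were -0.49 in HCD+Gl-2 and 0.26 in HCD+Gl-1, and neither passed on the adjusted p alone. Krt222 read 8.23, 8.43 and 8.33 in Control, 8.72, 8.61 and 8.60 in HCD+Gl-1 and 7.66, 7.89 and 8.11 in HCD+Gl-2. The extract groups thus lay on opposite sides of Control without overlap. Set against each other, a comparison added after these values were seen, HCD+Gl-2 was lower in Krt222 than HCD+Gl-1 by 0.76 (SE 0.10, adjusted p = 0.000161), and 0.00906% of all genes were called. Markers of neighbouring tissue differed as well. The summed linear signal of 8 pituitary genes was 894 to 959 in HCD+Gl-1, 511 to 566 in HCD+Gl-2, 579 to 829 in HCD and 469 to 565 in Control, with group means of Gh, growth hormone, of 9.08, 7.25, 8.15 and 6.86. That of 8 choroid plexus genes was 4006 to 5705 in HCD+Gl-1, 2738 to 6154 in HCD+Gl-2 and 6375 to 7596 in Control. Their part in the value of Krt222 was not tested. Krt4, Krt13 and Krt23 differed between HCD and Control in brain by 0.06, -0.06 and -0.09.

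The liver response was tested against that of the other tissues. For HCD against Control the difference between liver and kidney was called for 2 keratins, Krt13 (-1.16, SE 0.27, adjusted p = 0.0415) and Krt23 (0.83, SE 0.17, adjusted p = 0.0169), beside 0.149% of all genes. Between liver and brain the same 2 were called, Krt13 at -1.13 (adjusted p = 0.0461) and Krt23 at 0.92 (adjusted p = 0.00429), beside 0.190%. For the 4 cholesterol-fed groups Krt4 and Krt13 were called, beside 0.168% for kidney and 0.236% for brain. The difference of Krt4 was -1.63 from kidney (adjusted p = 0.0101) and -1.62 from brain (adjusted p = 0.00615), and that of Krt13 was -1.18 (adjusted p = 0.00207) and -1.16 (adjusted p = 0.00166). These differences contain the same Liver Control arrays, and none was called against pool C of Liver Control alone, where Krt23 in HCD was 0.63 from kidney (adjusted p = 0.296) and 0.72 from brain (adjusted p = 0.164). Leaving out single arrays among 12 ended the HCD calls of Krt13 in 10 cases against kidney and 9 against brain, and that of Krt23 against kidney in 4. The Krt4 calls ended without pool A or without pool B of Liver Control, and that against kidney also without pool A of Kidney Control.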

How the data were processed

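RNA of liver, kidney and brain, pooled within each of 5 diet groups, was hybridised to 45 Affymetrix arrays, and groups and pool letters were read from the labels. The authors corrected the intensities by RMA, applied quantile normalisation and a ComBat batch adjustment, and retained for each gene the probe set of widest interquartile range, and the values were deposited as log2 signals. The batches and the genome build are not given in the sources used here, so an effect of ComBat on these values cannot be traced. Arrays give no read depth, and their number limits the precision.

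A model of 15 group means was fitted to the 22080 genes with limma 3.58.1 in R 4.3.3 (residual degrees of freedom 30, prior 7.34), and p-values were adjusted by Benjamini-Hochberg within each comparison. Exact permutation tests were run in Python 3.11.15. On simulated data for liver HCD against Control with 22080 genes, 99 of 100 genes changed by 1 on the log2 scale and 100 of 100 changed by 2 were called. The simulated arrays were independent, with the same spread of a gene in every group and no mixed pool. The simulation thus does not cover genes such as Krt4 and Krt13, whose spread was wide in Liver Control. Named were called keratins, simple keratins, Krt4, Krt5, Krt13, Krt14 and Krt15, the 5 genes most like a called keratin, and members of other lists called beside one. Keratins and list genes outside this rule (Krt1, Krt33b, Krt71, Krt72, Krt80, Krt222 in brain diets, Nefl, Gfap, Dsp and Jup) were chosen after their values were seen. The members and lists were chosen with earlier results of these data known. The main fit paired no samples. Of 36 same-letter correlations with Control within a tissue, 7 exceeded 0.1, among them all 3 of brain HCD+Gl-2. Between tissues, at the same diet and letter, 3 of 45 did (highest 0.14). Whether a letter marks the same mice in each tissue is not stated in the sources used here. Alternatives covered the arrays fitted, pools, blocks, dim genes (a highest group mean under 5), normalisation, moderation and thresholds.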

Additional observations from a re-analysis of the deposited data

Results flagged for a closer look

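For Krt4, Krt13 and Krt23, 8 differences between liver and another tissue in the response to cholesterol were called in limma. No explanation was weighed. All 8 use the same Liver Control arrays, and HCD is part of the cholesterol-fed mean, so they are not separate evidence. Of all genes, 0.149% to 0.236% were called in these comparisons. For HCD against Control, Krt13 differed by -1.16 between liver and kidney and by -1.13 between liver and brain, and Krt23 by 0.83 and 0.92. For the 4 cholesterol-fed groups against Control, Krt13 differed by -1.18 and -1.16 and Krt4 by -1.63 and -1.62. With Liver Control pools A and B left out, which leaves pool C as the only Control array in liver, the differences in HCD were -0.33 from kidney and -0.30 from brain for Krt13 and 0.63 and 0.72 for Krt23, and none of the 8 was called.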

How the results depend on the processing

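Most called values held under other processing. Those that did not were mainly the liver diet calls and the differences of the liver response from that of another tissue. Counts of called keratins against Liver Control were 3 for HCD, 3 for HCD+Sim and 2 for either extract group. Fitted on the 15 liver arrays alone they became 1 for HCD and 0 for either extract group, and on the compared groups alone 1 for HCD and 0 for the other treatments. By the adjusted p alone they were 4 in HCD+Gl-2 and 5 in the cholesterol-fed groups together, 1 in HCD+Gl-2 and 2 in HCD+Sim against HCD, 4 over the 3 treatment pairs of liver, 1 in kidney, 1 in brain, and 42, 40 and 30 between liver and kidney, liver and brain, and kidney and brain. Without Liver Control pools A and B, a choice made after seeing the data that leaves 1 Control array known to be low in Krt4, with its spread assumed to be that of the other groups, they were 0 in all 5 comparisons with Liver Control and 0 in all 4 differences between tissues, and Krt4 turned to 0.0101 in HCD and 0.13 in HCD+Sim. With 1 array left out at a time, counts ran from 2 to 3 in HCD, in HCD+Gl-1 and in the cholesterol-fed groups, from 1 to 2 in HCD+Gl-2 and from 1 to 3 in HCD+Sim. For the differences they ran from 0 to 3 (liver minus kidney, HCD) and from 1 to 3 (the other 3). Of 741 single values so recomputed, 703 kept their side of the thresholds, 35 lost a call and 3 gained one. Most of the lost calls were of differences of the liver response from that of another tissue.

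With the pool letter as a replicate block, all 39 gene values kept their side of the thresholds and the count in HCD stayed at 3. With diet and letter as a random block, all 15 did (correlation 0.0173). All 39 also did without dim genes, which left 19652 genes and 48 keratins, and with trended, robust moderation. Quantile normalisation within the tissue kept 16 of 16, and over all arrays 22 of 23. With pools A and B only, 38 of 39 were kept. Fitted on the tissue's 15 arrays, 9 of 16 were kept, on the compared groups 4 of 13, and between tissues in the Control groups only 11 of 15. The cause of each change was not tested.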
